A study of Mus musculus with 2 samples.

Results

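Keratinocytes with high RNA levels of inflammatory chemokines were described in 2 single-cell RNA libraries of cultured mouse epidermal cells. Cells with the basal keratin gene Krt14 at 1000 CPM or more (counts scaled to 1000000 per cell) entered a gate. Each gate cell received a score, the mean of log2(CPM + 10) over the chemokine genes Cxcl1, Cxcl2, Cxcl5 and Ccl20 and the cytokine gene Il1a. The 10% of gate cells with the highest score over both libraries were taken, 307 of 3062 gate cells and of 3686 cells in all. They are called chemokine-high cells here, and the other 2755 gate cells are the cells they were compared with. All 14 keratinocyte marker genes had RNA in them, with a summed level of 12710 and 10500 CPM in the 2 libraries against 15560 and 13140 CPM in the other gate cells. The class is the upper end of a continuous score, not a separate cell type.

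Epidermis came from C57BL/6 mice at postnatal day 1. Each library came from a pool of same-genotype neonates: 11 with Rosa26-CreERT2, and 9 with Bap1 fl/fl and Rosa26-CreERT2. CreERT2 is a recombinase that tamoxifen compounds switch on, Rosa26 drives it in nearly all cells, and Bap1 encodes a deubiquitinase of histone H2A. Both cultures were kept for 7 days in medium M254 with a human melanocyte growth supplement, the first 4 with 100 nM 4-OHT and the last 3 without it, so the recombinase and the drug were common to both. About 6000 viable cells per pool were loaded for 10x Chromium 3′ sequencing. The library labelled wild type held 1926 cells and 77579465 unique molecular identifiers (UMIs), and the library labelled knockout 1760 cells and 64954113, with medians of 37223 and 33585 UMIs per cell. They shared 3 cell barcodes. Bap1 RNA did not follow the labels: other gate cells had 13.97 CPM under the wild type label and 19.22 CPM under the knockout label. Reads at the 3′ end of a transcript do not check a deletion elsewhere in the gene, so the names below are those of the labels. Each genotype had a single library, so no replicate spread could be measured and nothing was tested. Culture and genotype cannot be told apart, and each 95% interval covers counting error only.

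Cxcl1, Cxcl2 and Cxcl5 encode chemokines that draw neutrophils through the receptor CXCR2, and Ccl20 encodes the ligand of CCR6, a receptor on dendritic cells and some T cells. Il1a encodes interleukin 1 alpha, a cytokine that keratinocytes store and release on injury. Interleukin 1 and tumour necrosis factor act on keratinocytes through NF-kB, a family of transcription factors, and the genes of these chemokines are textbook NF-kB targets.

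Promoter sequences are shown for the score genes, which define the class, and for Cxcl3 and Ppbp, which lie beside them on the chromosome and had the highest ratios in the weaker library of the genes the score did not use. The 150 bases before the annotated start site are given 5′ to 3′ on the gene's strand, from the RefSeq table of build GRCm38.p6, which held 8 of 9 genes looked up and not Cxcl5. Capitals mark matches to GGGNNNTTCC, a form of the kB motif, on either strand, and matches that overlap were joined.
Cxcl1 (chr5:90891095-90891244, plus strand): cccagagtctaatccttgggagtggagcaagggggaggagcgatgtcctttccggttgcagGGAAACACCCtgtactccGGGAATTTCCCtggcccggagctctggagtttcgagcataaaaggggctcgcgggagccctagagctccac
Cxcl2 (chr5:90903749-90903898, plus strand): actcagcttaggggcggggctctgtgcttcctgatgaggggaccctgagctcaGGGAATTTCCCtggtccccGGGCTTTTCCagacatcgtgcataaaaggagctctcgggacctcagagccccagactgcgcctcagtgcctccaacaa
Cxcl3 (chr5:90785951-90786100, plus strand): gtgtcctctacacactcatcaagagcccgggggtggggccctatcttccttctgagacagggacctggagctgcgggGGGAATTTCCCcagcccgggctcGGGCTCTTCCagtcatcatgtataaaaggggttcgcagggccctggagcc
Ccl20 (chr1:83116616-83116765, plus strand): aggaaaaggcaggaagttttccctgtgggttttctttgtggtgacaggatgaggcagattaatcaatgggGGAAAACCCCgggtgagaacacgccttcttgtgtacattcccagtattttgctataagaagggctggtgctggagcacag
Il1a (chr2:129309973-129310122, minus strand): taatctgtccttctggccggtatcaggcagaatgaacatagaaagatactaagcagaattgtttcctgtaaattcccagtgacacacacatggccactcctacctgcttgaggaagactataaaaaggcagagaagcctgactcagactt
Ppbp (chr5:90768368-90768517, plus strand): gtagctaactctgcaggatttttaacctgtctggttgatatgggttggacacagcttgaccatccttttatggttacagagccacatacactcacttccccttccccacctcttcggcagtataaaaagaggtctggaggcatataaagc
In the 250 bases before the start site, 4.65% of 32851 promoters held a match. Cxcl1 had matches that began 89 and 71 bases before the start site, Cxcl2 97 and 78, Cxcl3 73 and 50, and Ccl20 a single match at 80. The windows of Il1a, Ppbp, Pf4 and Cxcl15 held none. These are letter matches in a short window and say nothing of binding.

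The chemokine-high class was more frequent in the library labelled wild type, with 245 of 1702 gate cells or 14.39% (exact Clopper-Pearson interval 12.76% to 16.15%). The library labelled knockout had 62 of 1360 or 4.56% (3.51% to 5.81%), a log2 ratio of shares of -1.66 (-2.08 to -1.25). These shares follow from the rule and are a description. The whole score distribution lay lower in the library labelled knockout, with a median of 5.16 against 6.25 over gate cells. Within the class, the medians were 8.60 and 8.72. The lowest score inside was 7.942 and the highest outside 7.941. Within 0.25 of the limit lay 55 class cells and 65 cells just outside it under the wild type label, and 11 and 15 under the knockout label.

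**Figure D1:**
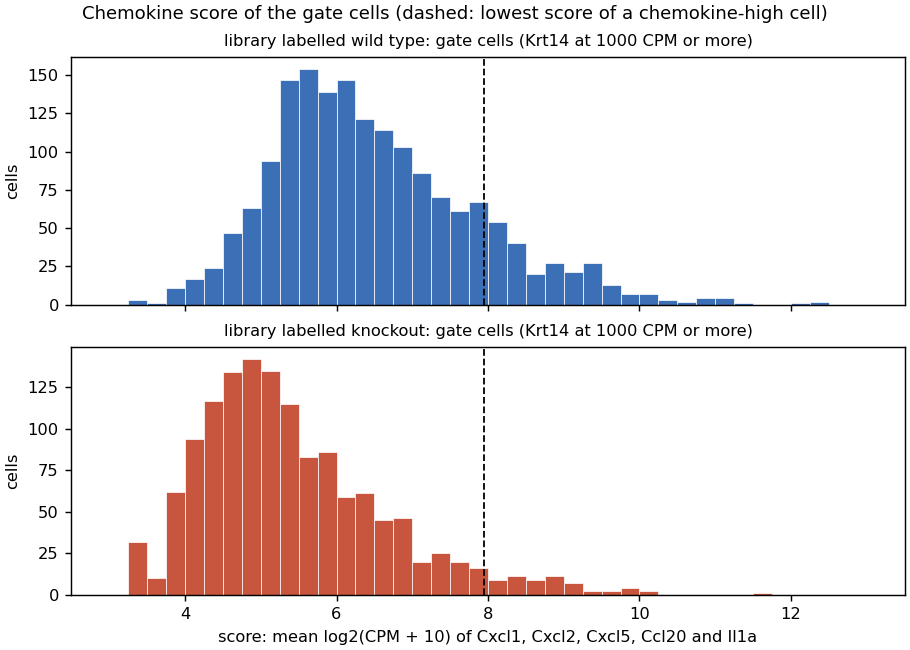
Number of gate cells (y axis) by chemokine score (x axis, log2 scale) in each library, with a dashed line at the lowest score of the class. Both distributions have 1 peak and a long right tail, and 245 and 62 cells lie at or beyond the line.

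Chemokine-high cells were also deeper, so depth moved with the class: their medians were 47048 and 42974 UMIs per cell in the libraries labelled wild type and knockout, against 38500 and 36993.5 in other gate cells. Gate cells under the median depth were in the class in 10.93% and 3.53% of cases, and those at or over it in 17.86% and 5.59%. The share was lower in the library labelled knockout on both sides. Each library was split at its own median, so the sides were not matched in depth between libraries. The part of depth in this and the other contrasts was not tested. The share of UMIs from mitochondrially encoded genes had medians of 1.29% and 1.24% in the class against 1.26% and 1.08% in other gate cells.

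In 3′ UMI counts, which do not grow with transcript length, Cxcl1 had the highest level of the 5 score genes. In sums over cells Cxcl1 reached 3619 CPM in the class against 678 in other gate cells of the library labelled wild type, and 5060 against 594 CPM in the library labelled knockout. Cxcl2 had 1283 against 131 CPM and 2004 against 65.6 CPM. Cxcl5 was at 2157 against 159 CPM and at 1503 against 70.4 CPM. For these genes every contrast between class and other gate cells was fixed by the rule. Ccl20 had 413 against 46.3 CPM and 716 against 41.9 CPM. Il1a had 827 against 226 CPM and 599 against 120 CPM. Between libraries, class cells labelled knockout had more Cxcl1, Cxcl2 and Ccl20 (log2 ratios 0.48, 0.64 and 0.79) and less Cxcl5 and Il1a (-0.52 and -0.47) than class cells labelled wild type. In other gate cells all 5 ratios were below 0 (-0.19, -1.001, -0.15, -1.18 and -0.91 in the same order). The class was cut at 1 score made of these genes, so their class ratios are tied together and are a description. Under the knockout label the richest class cell held 13.12%, 28.14%, 23.83%, 18.85% and 7.77% of the class UMIs, in that order.

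**Figure D2:**
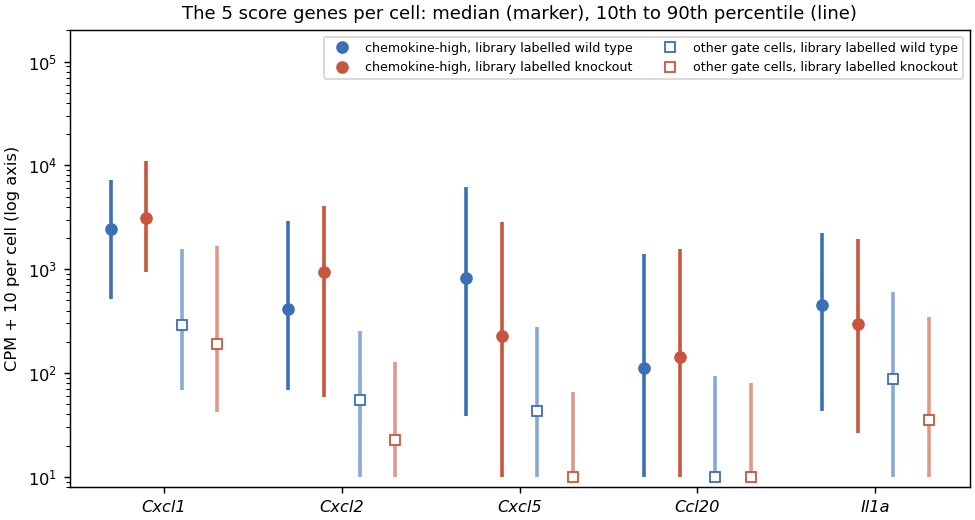
CPM + 10 per cell (log axis) of the 5 score genes, with medians as markers and the 10th to 90th percentile as lines, for class cells (filled) and other gate cells (open) of each library. The median cell of the class had 2422 and 3096 CPM of Cxcl1, and the median other gate cell 279 and 182 CPM.

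Free RNA can give UMIs to cells that do not express a gene, so detection was set beside pigment cells, a different cell type. Whether pigment cells express these genes was not tested, so their shares are not a known background level. After each cell was thinned to 8000 UMIs, with 0 cells left out, Cxcl5 was detected in 77.96% and 67.74% of class cells, in 34.04% and 13.10% of other gate cells and in 13.64% of 22 and 3.57% of 56 pigment cells (libraries labelled wild type and knockout). Before thinning the pigment cells had median depths of 10993 and 10317 UMIs, and Cxcl5 shares in the class were 97.14% and 82.26%. For Cxcl1 the thinned shares were 98.37% and 98.39% in the class, 82.02% and 70.72% in other gate cells and 54.55% and 37.50% in pigment cells. The class shares follow from the rule, so their distance from the pigment cells is a description. For Cxcl5 the exact intervals of other gate cells and pigment cells overlapped in both libraries. Pigment cells were those with Dct, Pmel, Mlana and Tyrp1 at 20000 CPM or more together, and 1 of the 56 labelled knockout also lay in the Krt14 gate.

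Cells of the class differed in which chemokine led. Cxcl1 had the most UMIs of the 5 in 124 of 245 class cells labelled wild type and in 39 of 62 labelled knockout. Cxcl5 led in 70 (28.57%) and 6 (9.68%), and Il1a in 20 and 5. All 5 genes had at least 1 UMI in 184 (75.10%) and 32 (51.61%) class cells, against 22.58% and 6.01% of other gate cells. Over all gate cells the log2(CPM + 10) values of Cxcl5 and Ccl20 had Pearson's r = 0.16 and 0.12. Within the class r was -0.33 over 245 cells and -0.44 over 62. A class chosen on a sum of 5 genes tends to such negative values, so they are a description. Cxcl1 and Cxcl2 went together over gate cells, with r = 0.42 and 0.44 over cells that share a library and depth effects. When 1 gene was left out of the score, 235 (without Cxcl5) to 264 (without Cxcl1) of the 307 cells were chosen again.

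Across all genes, few separated the class from other gate cells in both libraries. Of 8029 genes with at least 10 CPM over gate cells, without the score genes, 1.74% were 1.5-fold higher and 1.63% 1.5-fold lower in the class of the library labelled wild type, and 2.54% and 4.38% in that of the library labelled knockout. The median log2 ratio over these genes was 0.00 in both. In both libraries 59 genes (0.735%) were higher and 90 (1.12%) lower, and 12 (0.149%) passed in opposite directions. Single cells weigh in these sums. When each gene's richest cell was left out of each set of cells, 23 of 59 calls for higher and 89 of 90 for lower were kept. The step was chosen after seeing the data. It removed 1 of 245 and 1 of 62 class cells, but 1 of 1457 and 1 of 1298 other gate cells (libraries labelled wild type and knockout). The smaller set loses more, so the step tends to lower ratios, most of all under the knockout label. Calls kept for higher and for lower are therefore not comparable. Values without those cells are given below as "without the top cell".

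**Figure D3:**
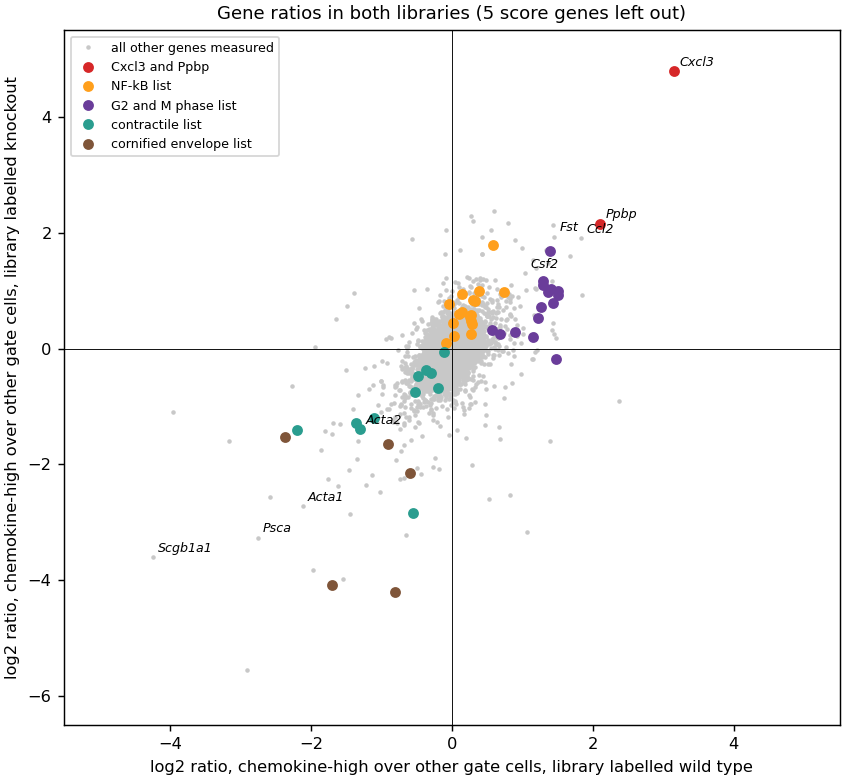
Log2 ratio of summed CPM, class over other gate cells, in the library labelled wild type (x axis) and knockout (y axis), 1 point per gene, with lists in colour and the score genes left out. Cxcl3 lies farthest up and right (3.15 and 4.79). Scgb1a1, 5 of 6 cornified genes and 4 of 11 contractile genes lie down and left by 1.5-fold or more in both libraries.

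Cxcl3 and Ppbp, further CXCR2 ligands that the score did not use, had the highest ratios when genes were ranked by the weaker library. They lie with Cxcl5, Cxcl1 and Cxcl2 in a chemokine cluster of 7 genes at chr5:90759298-90905938, a span of 146641 bases (GRCm38.p6). Cxcl3 had 183 CPM in the class against 20.6 CPM in other gate cells of the library labelled wild type (log2 ratio 3.15, 3.05 to 3.26) and 226 against 8.16 CPM in the library labelled knockout (4.79, 4.61 to 4.97). In the latter 1 cell held 58.57% of the class's Cxcl3 UMIs, and the ratio was 3.73 without the top cell. Ppbp, which encodes the precursor of a platelet chemokine, had 934 against 218 CPM (2.101, 2.06 to 2.14) and 549 against 123 CPM (2.16, 2.08 to 2.24). A single cell labelled knockout held 72.53% of its class UMIs, and without the top cell the ratio there was 0.63, near the 1.5-fold limit. The other genes of the cluster were nearly silent: Pf4 had 24 UMIs in the class labelled wild type and 2 in that labelled knockout, and Cxcl15 had 0 UMIs in every gate cell. Reads from stretches that these related genes share could be split between them.

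Of 5 measured chemokine genes outside the cluster, 2 were 1.5-fold higher in the class of the library labelled wild type and 5 in that of the library labelled knockout, with median log2 ratios of 0.34 and 0.80. Ccl2, the monocyte attractant, had 279 against 78.0 CPM (1.84, 1.77 to 1.90) and 655 against 175 CPM (1.91, 1.83 to 1.98). In the median cell Ccl2 had 17.0 against 12.4 CPM and 43.1 against 19.9 CPM. The Ccl2 level was also higher in the library labelled knockout among other gate cells. Ccl5 had 104 against 38.5 CPM and 355 against 80.8 CPM, but 1 cell held 76.59% of the latter, and its ratio there was 2.14, or 0.29 without the top cell. Cxcl16, at 964 against 761 CPM and 869 against 574 CPM, had ratios of 0.34 and 0.60. None of 15 chemokine receptor genes reached the minimum level.

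Other secreted mediators were higher in part. Of 10 measured cytokine and growth factor genes, 3 were higher in the class labelled wild type and 5 in that labelled knockout, none was lower, and the medians were 0.49 and 0.61. Csf2, which encodes the growth factor GM-CSF, had 328 against 159 CPM (1.04, 0.99 to 1.10) and 385 against 157 CPM (1.30, 1.21 to 1.39). Thinned to 8000 UMIs, 68.16% and 67.74% of class cells had a Csf2 UMI against 42.28% and 42.06% of other gate cells and 13.64% and 5.36% of pigment cells. Csf1, the macrophage growth factor, had ratios of 0.68 and 0.94, and Tslp, an epithelial alarm cytokine, 1.19 and 1.02 (0.72 and 1.21 without the top cell). Tnf, at 167 against 142 CPM and 221 against 112 CPM, passed 1.5-fold in the library labelled knockout alone (0.24 and 0.98). Il23a did not stand out (-0.10 and -0.11).

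Part of the NF-kB genes were higher in the class. Of 17 measured subunit, inhibitor and target genes, 2 passed 1.5-fold under the wild type label and 9 under the knockout label, none was lower, and the medians were 0.26 and 0.60. Without the top cell the counts were 1 and 7 and the medians 0.24 and 0.50. Icam1, an adhesion molecule for leukocytes, had 156 against 104 CPM (0.59) and 173 against 50.1 CPM (1.79). Nfkbia, the inhibitor that NF-kB itself induces, had 1167 against 1062 CPM (0.14) and 1152 against 742 CPM (0.64). Its class levels were close between libraries while its levels in other gate cells were not, and so were those of Ier3 (2196 and 2167 CPM in the class, 1793 and 1208 in other gate cells). Ikbke, a kinase related to the IKK enzymes, had ratios of 0.74 and 0.98, and Zc3h12a, an RNase that degrades cytokine messages, 0.39 and 1.00. Among the subunits, Rela had ratios of -0.09 and 0.09. Of 15 measured genes for receptors and adaptors upstream of NF-kB, Ripk2 (0.73 and 0.92), an adaptor kinase of the NOD receptors, was the 1 higher gene in each library, and 2 were lower under the knockout label, Irak4 and Ripk1 (-0.64 and -0.60). Their medians were 0.02 and 0.03.

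The genes with the highest ratios by the naming rule included several outside cytokine signalling. Fst, which encodes the activin antagonist follistatin, had 662 against 242 CPM (1.45, 1.41 to 1.49) and 242 against 63.5 CPM (1.93, 1.81 to 2.05). In cells of 20000 to 60000 UMIs the weaker Fst ratio was 0.13, under the 1.5-fold limit. The metallothionein gene Mt2 had 270 against 106 CPM (1.36) and 244 against 87.2 CPM (1.49), and Mt1 had ratios of 0.84 and 1.10. The weaker Mt1 ratio was 0.43 with the Krt14 gate at 2000 CPM and 0.53 in that depth window, both under the limit. Serpinb2, the plasminogen activator inhibitor PAI-2, had ratios of 1.42 and 1.16, the latter 0.58 without the top cell. Its weaker ratio was -1.26 in cells of 20000 to 60000 UMIs. In the median cell Serpinb2 had 58.7 against 42.9 CPM and 18.6 against 18.0 CPM. Fosl1, an AP-1 subunit, was a low gene at 17.8 against 7.99 CPM (1.16) and 33.8 against 11.7 CPM (1.54). Rgs16, a regulator of G protein signalling, had ratios of 1.05 and 1.01, Igfbp3 of 0.94 and 0.89, and Ifitm3, an interferon-induced membrane protein, of 0.85 and 0.91. Plekhs1 (1.00 and 1.74) and Tmem171 (0.89 and 1.88) completed the 12. The weaker ratio was 0.53 for Rgs16 with Ccl20 left out of the score and 0.55 for Tmem171 with Cxcl5 left out, both under the limit. 

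Further lists had median log2 ratios between -0.32 and 0.50. Of 16 measured AP-1 and immediate early genes, 1 was higher under the wild type label and 4 under the knockout label, with 0 and 1 lower (medians 0.13 and 0.34). Of 7 interferon response genes 0 and 1 passed 1.5-fold upward (0.23 and 0.49). Among 7 antimicrobial genes 2 were higher in each library and 1 and 2 lower (0.11 and 0.50). In both libraries at once 0 were higher and 1 was lower, Ltf (-1.58 and -1.30). Slpi, a leukocyte protease inhibitor, had ratios of 0.78 and 0.50. Lcn2, the iron-binding lipocalin, had 0.11 and 1.70 (0.96 in the latter without the top cell). Without the top cell 1 of the 7 was higher and 2 were lower in each library (-0.06 and 0.16). Of 12 proteases and plasminogen system genes 2 were higher and 2 lower in each library. The metalloprotease gene Adam8 had 207 against 126 CPM (0.72) and 95.9 against 47.6 CPM (1.01). Timp3 of the same list was lower in both libraries (-0.80 and -1.18). Without the top cell 2 were higher and 2 lower under the wild type label, and 1 and 3 under the knockout label. Of 4 measured interleukin 1 family and receptor genes 1 and 2 were higher (0.21 and 0.35), with Il18rap at 0.66 and 0.78; without the top cell Il18rap was at 0.49 under the wild type label and 0 of the 4 were higher there. Of 5 prostaglandin synthesis genes 0 and 1 were higher, and Ptgs2, cyclooxygenase 2, had ratios of -0.05 and 0.21. None of 10 hypoxia and glycolysis genes passed 1.5-fold in either library (0.10 and -0.07), and of 13 NRF2 genes 0 did under the wild type label and 1 each way under the knockout label (0.06 and 0.13). Of 16 integrated stress response genes 2 and 1 were higher and 0 and 2 lower (0.08 and -0.06). None of 7 ERK feedback genes passed in either library (0.11 and 0.04), and of 5 EGF receptor ligand and receptor genes 0 and 1 were higher (-0.17 and -0.32). Of 8 genes of MHC class I presentation 1 was higher in each library (0.05 and 0.06), and of 6 suprabasal genes 1 was higher and 1 lower under the knockout label alone (0.00 and -0.10).

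**Figure D4:**
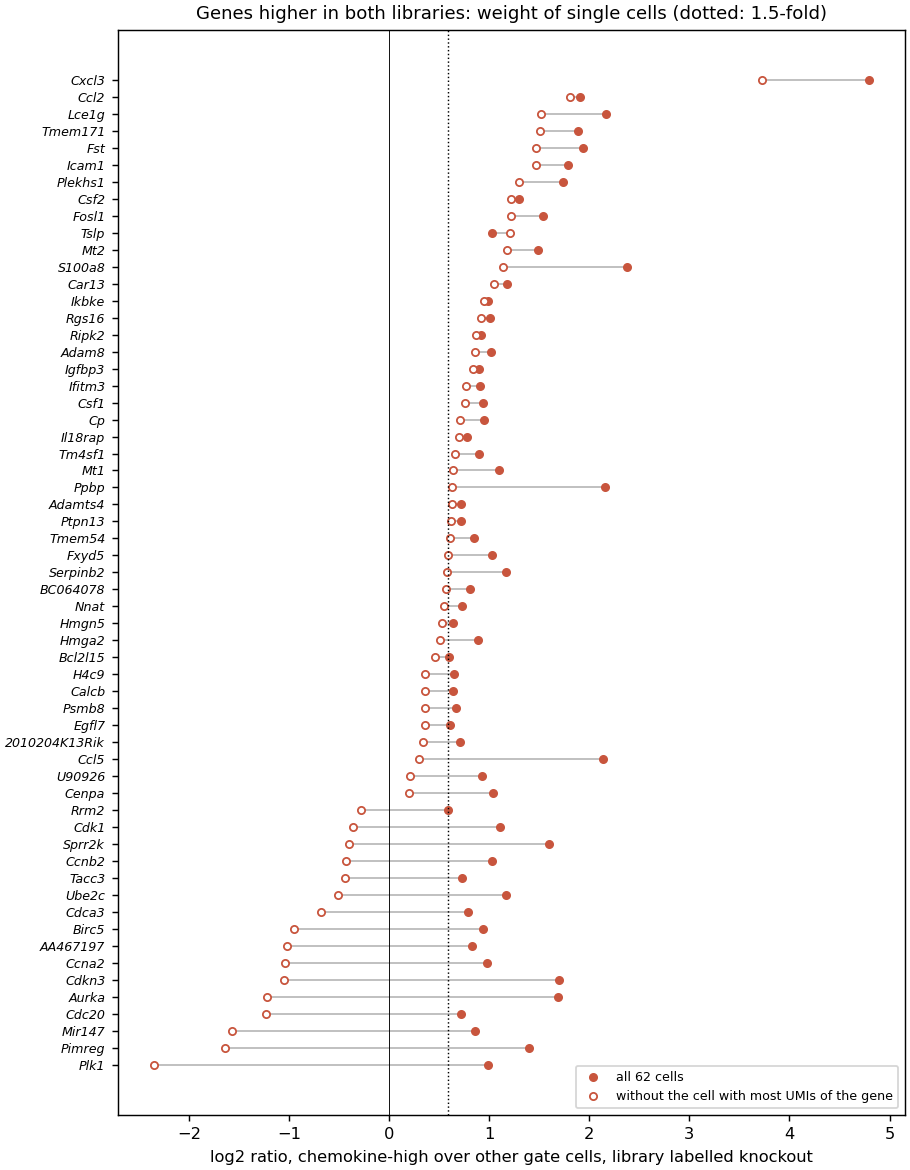
Log2 ratio, class over other gate cells, in the library labelled knockout for the 59 genes higher in both libraries, with all 62 class cells (filled) and without the cell richest in the gene on each side (open). The 9 genes of the G2 and M phase list among them move below 0 (Plk1 from 0.99 to -2.36). Cxcl3, Ccl2, Fst and Csf2 stay above the dotted 1.5-fold line. The step leaves out 1 of 62 class cells but 1 of 1298 other gate cells, which tends to lower the ratio.

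Cell division genes were higher in the class labelled wild type. Under the wild type label 14 of 15 measured G2 and M phase genes and 8 of 13 S phase genes were 1.5-fold higher in the class, with medians of 1.29 and 0.63. Cdk1, the mitotic kinase, had 163 against 66.6 CPM and Ube2c, a ubiquitin conjugating enzyme of mitosis, 290 against 119 CPM. In the library labelled knockout 9 of the 15 were higher with a median of 0.78, but a single cell held 67.83% of the class's Cdk1 UMIs and 72.87% of its Ube2c UMIs. Without the top cell 0 were higher and 8 lower with a median of -0.69. That turn does not show a lower level, because the step removed 1 of 62 class cells against 1 of 1298 other gate cells. By cells, at least 5 G2 and M phase UMIs of 8000 were found in 57 of 245 class cells labelled wild type (23.27%, 18.12% to 29.07%) and in 126 of 1457 other gate cells (8.65%, 7.26% to 10.21%). In the library labelled knockout the counts were 2 of 62 (3.23%, 0.39% to 11.17%) and 28 of 1298 (2.16%, 1.44% to 3.10%). The median cell had 135 against 112 CPM and 83.7 against 82.0 CPM of these genes summed, and the 90th percentile was 4582 against 319 CPM and 191 against 184 CPM.

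In sums over cells, part of the contractile genes were lower in the class. Of 11 measured contractile genes, 4 were 1.5-fold lower under the wild type label and 7 under the knockout label, none was higher, and the medians were -0.53 and -0.76. Acta2, smooth muscle actin, had 622 against 1536 CPM (-1.31, -1.40 without the top cell) and 1172 against 3088 CPM (-1.40 and -1.69). Tagln (-1.36 and -1.29), Myl9 (-1.11 and -1.21) and Cnn1 (-2.20 and -1.41) were lower in both. Tpm1, at 4403 against 4743 CPM and 4995 against 5180 CPM, differed little. The skeletal muscle actin gene Acta1 had 49.7 against 216 CPM and 89.9 against 596 CPM. The median cell differed less, with 9.87 against 16.1 CPM and 47.8 against 51.8 CPM of Acta1. For Acta2 the median cell had 155 against 201 CPM and 238 against 999 CPM. The 90th percentile of Acta2 was 1336 against 4311 CPM and 2781 against 8292 CPM, so cells with high levels weigh in these sums. Of 11 matricellular genes, 2 and 5 were lower, among them Fn1, fibronectin (-0.99 and -0.79), and Ccn2 (-0.71 and -0.84).

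Of 6 measured cornified envelope genes, 5 were lower in each library, with medians of -0.86 and -2.16. Ivl, involucrin, had 41.3 against 62.4 CPM and 21.9 against 97.5 CPM (-0.60 and -2.16), and Cnfn, cornifelin, 57.6 against 188 CPM and 2.82 against 47.7 CPM. The exception in the list was Lce3f, of which 1 class cell labelled wild type held 99.23% of 1821 UMIs and the class labelled knockout held 0; without the top cell 6 of the 6 were lower under the wild type label (median -1.73) and 5 under the knockout label (-2.69). A pair of related genes outside the list, named after their values were seen, went the other way: Lce1g, a late cornified envelope gene, had 275 against 159 CPM and 1021 against 227 CPM (0.79 and 2.17, and 0.65 and 1.52 without the top cell), and Sprr2k had ratios of 1.68 and 1.59 (0.36 and -0.41 without the top cell). Most cells had little RNA of the listed genes. Under the wild type label the median cell had 78.9 CPM in the class and 81.1 CPM in other gate cells. The 90th percentile there was 180 against 657 CPM. Under the knockout label the median cell had more in the class, at 58.8 against 42.75 CPM. The 90th percentile there was 181 against 249 CPM. In sums, Psca, of the Ly6 family of surface proteins, was lower (-2.76 and -3.27), and so was Scgb1a1, a secretoglobin (-4.25 and -3.61). Psca was detected, without thinning, in 47.76% of class cells and 39.81% of other gate cells under the wild type label. Under the knockout label it was detected in 16.13% and 13.10%. Scgb1a1 was detected in 17.96% of class cells and 20.52% of other gate cells under the wild type label, and in 17.74% and 15.56% under the knockout label, without thinning, beside 4.55% and 1.79% of the shallower pigment cells. Its direction turned when the class was chosen otherwise, to a weaker ratio of 1.61 with Ccl20 left out of the score. The protease genes Klk7 (-2.36 and -1.52) and Prss27 (-1.80 and -1.42) and the protease inhibitor gene Cst6 (-1.62 and -2.37) were lower, too, though Klk7 turned to 0.46 with Ccl20 left out. Each was detected, without thinning, in a larger share of class cells than of other gate cells in both libraries (Cst6 55.10% against 49.69% and 69.35% against 62.02%). Their lower sums do not mean that fewer class cells had them, and class cells were deeper. The remaining lowest genes by the naming rule were Tmem45a (-2.58 and -2.56), Mall (-1.75 and -2.25), Edn2, an endothelin (-1.86 and -1.75), Slc16a11 (-1.70 and -1.48), Clic3 (-1.34 and -1.90) and Htr1d, a serotonin receptor (-1.34 and -1.32). The weaker ratio lost its call for Edn2 in the top 20% (-0.49) and with 10% taken within each library (-0.51), and for Slc16a11 with Ccl20 left out (-0.46).

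A minority of basal genes were lower in the class. Of 16 measured basal and hemidesmosome genes, 2 were lower under the wild type label and 6 under the knockout label, with medians of -0.31 and -0.39. Krt14, the gate gene, had 4011 against 6270 CPM (-0.64) and 3501 against 5277 CPM (-0.59). Trp63, the transcription factor p63 of basal cells, had ratios of -0.51 and -0.61, and Itgb1 -0.12 and -0.32. Of 10 measured wound keratin and stress protein genes, 3 and 1 were higher and 4 and 6 lower, with medians of -0.48 and -0.61. The wound keratin gene Krt6a was at 897 against 1533 CPM and 892 against 1344 CPM, and Krt16 had ratios of -0.97 and -0.62, so these keratins, which wounds induce in epidermis, were lower in the class. Krt17, near 13770 against 18920 CPM and 12840 against 17640 CPM, had ratios of -0.46 in both.

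**Figure D5:**
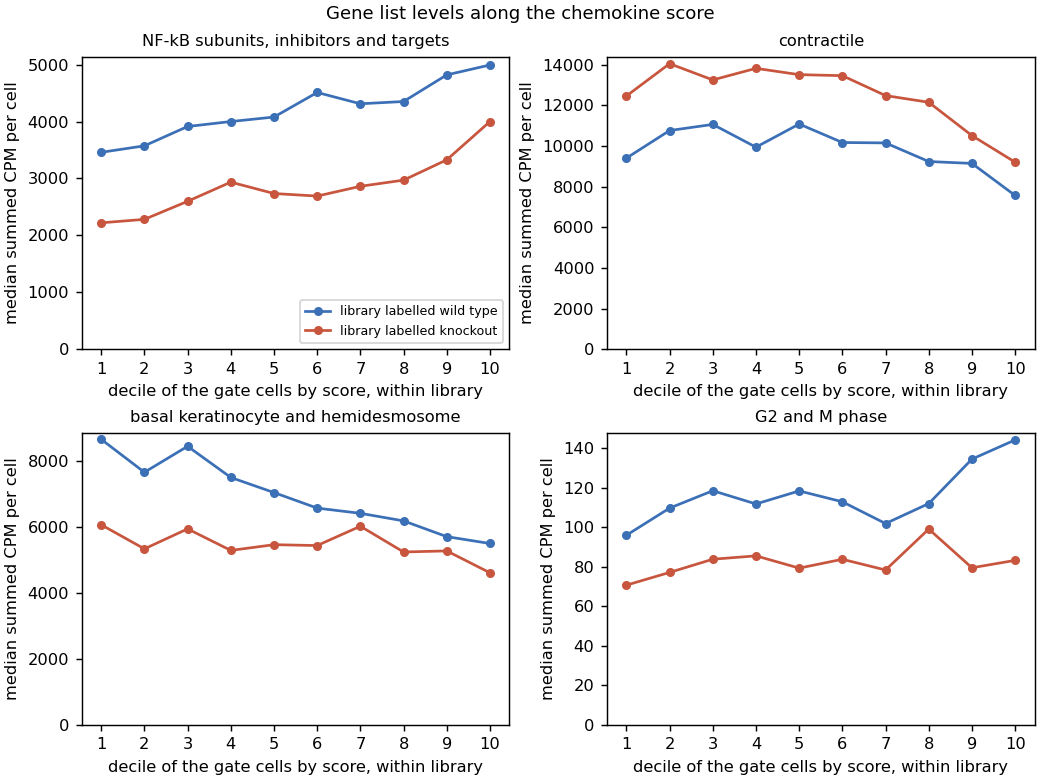
Median summed CPM per cell (y axes) of 4 gene lists over deciles of the gate cells ordered by score within each library (x axes). The NF-kB list rises from 3459 to 4994 CPM and from 2220 to 4000 CPM between the lowest and highest decile, and the contractile and basal lists are lower in the highest decile than in the lowest.

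Along the score within each library the same lists were followed in single cells. From the lowest to the highest decile, the median cell went from 3459 to 4994 CPM of the NF-kB list labelled wild type and from 2220 to 4000 CPM labelled knockout. The contractile list went from 9401 to 7562 CPM and from 12460 to 9201 CPM, but not steadily: deciles 2 to 7 lay above the lowest in both libraries, at 9940 to 11080 CPM and 12480 to 14050 CPM. The basal list went from 8661 to 5500 CPM and from 6068 to 4611 CPM. Median depth rose from 22720 to 46950 UMIs and from 23630 to 45180 UMIs over the same deciles, and its part in these values was not tested.

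Within the class, 4.44% of 8080 measured genes were 1.5-fold higher and 11.0% lower in the library labelled knockout, against 2.61% and 6.63% of 8034 in other gate cells. These shares are not a like comparison. The class labelled knockout held 62 cells and 2837428 UMIs, against 1298 cells and 51832660 UMIs in other gate cells, and a smaller set passes a fixed fold more readily. The minimum level was also taken over class cells for the first and over all gate cells for the second. Mdk, the growth factor midkine, was at 59.2 CPM in the class labelled knockout and 6.83 CPM in that labelled wild type (log2 ratio 3.12, 2.73 to 3.51), and its ratio in other gate cells was 2.83. Scx, a transcription factor of tendon, and Gdf15, a stress-induced cytokine, had ratios of 2.49 and 2.19 in the class and 1.87 and 1.56 in other gate cells. Sprr2d, a cornified envelope gene, was at 2.82 against 185 CPM (-6.04) in the class, where 1 cell labelled wild type held 35.88% of its UMIs, and had -2.64 in other gate cells. Crip1 had 3.52 against 65.9 CPM (-4.22, and -2.77 in other gate cells). Of 21 measured G2 and M phase genes 20 were lower in the class labelled knockout (median -1.88), and 19 in other gate cells (-1.54). Of 14 p53 target genes 5 were higher and 1 lower in the class (median 0.45), against 1 and 0 in other gate cells (0.11), with Cdkn1a, the p21 gene, at 3020 against 1667 CPM in the class. The other genes of the naming rule were Slc4a11 (2.16), Cox6b2 (2.03), Pappa (1.94), Lce1g (1.89, with 40.32% of the UMIs labelled knockout in 1 cell) and Ctsw (1.86) above, and Cenpk (-3.82), Ubd (-3.79), Dnajc12 (-3.66), Fggy (-3.50), Tnfaip8l1 (-3.35) and Lrp11 (-3.12) below. In the class labelled knockout, Cenpk, Ubd, Dnajc12, Fggy, Tnfaip8l1 and Lrp11 had only 3, 5, 4, 4, 4 and 5 UMIs. The interval was -6.11 to -2.25 for Cenpk and -5.42 to -2.55 for Ubd. A single class cell labelled wild type held 45.27% of the Ubd UMIs, and the Ubd ratio in other gate cells was -0.44. Each gene named between libraries by this rule had the same direction in other gate cells. Whether the sizes differ between class and other gate cells was not tested.

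Markers of other cell types were summed in the same way, and their part in the results was not tested. Summed over 16 myeloid markers the class had 54.3 and 37.0 CPM against 49.8 and 32.9 CPM in other gate cells, with C1qa, C1qb, C1qc, Itgam and Adgre1 at 0 in the class labelled knockout. The highest class cell had 424 and 160 CPM of them. Summed melanocyte markers were 312 and 282 CPM against 321 and 319 CPM, and fibroblast markers 35.2 and 16.2 CPM against 29.7 and 12.95 CPM. Schwann markers had 54.2 and 25.7 CPM against 53.6 and 33.2 CPM. Endothelial markers were low but higher in the class, at 5.19 and 4.93 CPM against 3.70 and 2.35 CPM. Neutrophil and mast cell markers had 3.79 and 5.29 CPM against 4.87 and 6.42 CPM, and lymphocyte markers 4.03 and 4.58 CPM against 5.48 and 4.997 CPM. Cells with at least 1000 CPM of Lyz2, Tyrobp and Fcer1g numbered 36 and 20, none in the gate. Those cells had 4066 and 3579 CPM of Cxcl2, above the class, but 28.1 and 2.81 CPM of Cxcl5 and 3.84 and 8.41 CPM of Ccl20, which are below the class.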

How the data were processed

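The authors deposited 1 table of UMI counts per library, genes by cells, made from 10x Chromium 3′ v2 libraries per the labels' protocols. Cell Ranger 2.1, Seurat 2.0 and the build mm10 are named in the submitters' processing notes without their roles; cell calling, doublet removal and the counting of intronic or antisense reads were not given in the sources used here. Symbols came from the RefSeq table of GRCm38.p6 for 31049 of 36528 NCBI gene identifiers, and the others held 2.67% of UMIs. All deposited cells were used. Scrublet (scanpy 1.11.5) marked 1 (0.0519%) and 7 (0.398%) cells as doublets and 0 chemokine-high cells, too few to say that it worked. Counts were summed per library and set of cells and divided by the summed UMIs to give CPM, so a ratio compares sums, with conditional exact 95% intervals, and shares have Clopper-Pearson intervals. A count of 0 on 1 side was set to 3 counts for a ratio, 3 genes whose direction this left undecided were left out of the calls, and genes at 0 on both sides got none. A gene was called at 1.5-fold. Genes were named by rule: the 12 highest and 12 lowest by the weaker library's ratio, the 8 highest and 8 lowest between libraries, the score genes, Krt14, Bap1 and measured genes of 30 lists, leaving out X and Y genes and, for the ranks, genes of which 1 cell held over 50% of the class UMIs. Genes that overlap or resemble another may share reads; Csf2, Fosl1, Fst, Il1a, Mdk and Scx overlap a neighbour. The class, lists and rule were chosen with earlier results of these data known. The code was tested on simulated data. Alternatives were other gates, score pseudocounts, class sizes, score genes, thinning, cell and gene filters, equal weight per cell and centred ratios; 3 were added after seeing the data. The work used Python 3.11.15, numpy 2.4.6, scipy 1.17.1, pandas 2.3.3 and matplotlib 3.10.9.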

Additional observations from a re-analysis of the deposited data

Results flagged for a closer look

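Cells outside the Krt14 gate with a score at or above the limit of the class numbered 23 under the wild type label and 23 under the knockout label. They entered no comparison. Of them 4 and 1 had myeloid markers at 1000 CPM or more, and their median depths were 25139 and 24288 UMIs.

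A group of 4 list genes, chosen for it after their values were seen, were 1.5-fold higher in the class in 1 library and lower in the other; the difference itself was not tested. S100a9, an antimicrobial S100 protein, had log2 ratios of 1.06 and -3.18 (libraries labelled wild type and knockout), and the defensin gene Defb14 0.68 and -1.56. Without each gene's top cell the first of these values became -0.37 for S100a9 and -1.42 for Defb14, so both genes were then lower in both libraries. Psat1, an enzyme of serine synthesis, had 0.76 and -0.66 (0.70 and -0.87 without the top cell), and Mcm6, a replication helicase subunit, 0.59 and -0.65 (0.54 and -0.84).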

How the results depend on the processing

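Over 21 alternatives, 129 recomputed counts and values of the comparisons stayed within 1.5 times the reported count or within the counting interval, and 13 did not. No paired analysis was possible because there was 1 library per genotype. The 59 genes higher in both libraries became 94 in the top 5%, 38 at 20 CPM or more, 715 with 1 UMI in each set of cells, 23 without each gene's top cell, 28 in cells of 20000 to 60000 UMIs and 39 without cells of 5 or more G2 and M phase UMIs. With 1 UMI per set the lower genes numbered 311. Between libraries within the class, higher genes numbered 224 at 20 CPM, 2266 with 1 UMI and 560 in the depth window, and lower genes 495 and 2865 at the first 2. The share ratio became -0.007 when 10% were taken within each library, by construction. Of 760 gene values 519 stayed within the counting interval of the reported ratio, 233 left it without reversing and 8 reversed. Scgb1a1 turned to 0.42 in the top 20%, 0.40 within each library, 0.05 without Cxcl2, 1.61 without Ccl20 and 1.62 after thinning. Klk7 turned to 0.46 without Ccl20 and 0.13 after thinning, and Serpinb2 to -1.26 in the depth window. The cause of these reversals was not tested. The median of the NF-kB list stayed between 0.18 and 0.31 and between 0.47 and 0.68 under the alternatives, and that of the contractile list between -0.71 and -0.47 and between -1.21 and -0.41 (libraries labelled wild type and knockout), while the G2 and M phase list ran from -1.56 to 1.66 in the library labelled knockout. With 62 class cells in that library, low genes rest on few UMIs.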
